A study of Mus musculus with 12 samples.

Results

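Hspe1 encodes the small co-chaperonin of the mitochondrial matrix, and its mRNA fell to 8.95% to 10.4% of the control level in undifferentiated C2C12 cells in which Bach1 was silenced. Hspe1 was set here beside 8 other genes for chaperones and proteases of the matrix, namely Hspd1, Hspa9, Dnaja3, Grpel1, Trap1, Lonp1, Clpp and Clpx. The members were all probes of the deposited table that carried one of these 9 symbols, which gave 9 of 27306 genes and 15 of 56605 probes that are not controls. Hspe1 was chosen by its silencing effects on these same arrays, and the other genes for their function in the same compartment. The question was whether the loss of Hspe1 mRNA was joined by a mitochondrial protein stress response, in which genes of this kind rise together.

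Most mitochondrial proteins are made in the cytosol, imported unfolded and folded in the matrix. Hspa9 pulls them in and holds them, helped by the J-protein Dnaja3 and the nucleotide exchange factor Grpel1, and the Hspd1 barrel with its Hspe1 lid folds them. Lonp1 and the ClpXP complex degrade proteins that fail to fold, and cells in which these proteins build up can raise chaperone and protease genes together with targets of the transcription factors ATF4, ATF5 and CHOP.

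C2C12 is a myoblast line from muscle of C3H mice whose cells fuse into myotubes when serum is lowered. All cells were transfected with an siRNA, either siControl or siBach1, and medium with 2% horse serum was given at confluence, 24 hours after transfection. RNA was taken at day 0, before induction, or at day 2 after it, which gave 4 groups (siControl day 0, siBach1 day 0, siControl day 2 and siBach1 day 2) of 3 one-colour Agilent arrays each. The methods name siBach1-2 as the only siRNA against Bach1 on the arrays, so the loss of Bach1 and any other effect of that sequence cannot be told apart. The triplicates are not described as separate cultures, and p-values measure the spread between these samples, which may be technical.

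The scanner found 47.6% to 58.9% of probes well above background on an array. Levels are given as log2 processed signal minus the 75th percentile of that array, so that a level of 0 is the 75th percentile and a difference of 1 is a doubling of the signal. The single Bach1 probe gave silencing effects of -1.77 at day 0 and -1.97 at day 2 (log2), and Hmox1, a gene that Bach1 represses, gave 3.30 and 3.13, in the direction of the labels. Of 5 myoblast markers, 4 were well above background on all 12 arrays, as were 6 of 6 markers of differentiated muscle. Of 13 markers of other lineages, Adipoq, Cdh5 and Epcam were well above background on no array and 4 on all 12. Silencing moved some markers too. At day 0 limma called the myoblast marker Cdh15 higher by 0.45 (adjusted p = 0.0051) and the macrophage marker Cd68 lower, with -0.48 (adjusted p = 0.0176). The other leukocyte marker, the brighter Ptprc, changed by 0.22 and was not called (limma adjusted p = 0.503). Cdh1, an epithelial marker, was also called higher (adjusted p = 0.0097), but it was well above background on 0 of the day 0 arrays. At day 2 limma called 2 of 4 tested myoblast markers lower, Myod1 with -0.48 and Tmem8c with -0.59 (adjusted p = 0.0365 and 0.0268). Of these, Tmem8c itself rose with differentiation, from a mean of 1.13 at day 0 to 5.84 at day 2 in siControl cells. Of 6 differentiated muscle markers 2 were called lower, Myog with -0.98 and Actn2 with -1.93 (limma adjusted p = 0.0165 and 0.00157). Bglap, an osteoblast marker, was called higher by 1.90 (limma adjusted p = 0.0057). Of the other osteoblast markers, Sp7 changed by 0.05 (limma adjusted p = 0.945) and Ibsp was not tested. The Bglap probe was well above background on 3 of 3 siBach1 but 2 of 3 siControl arrays at day 2, and it was tested only because it passed in the siBach1 group where it was high. The summed level of the 13 markers of other lineages was 2.44 to 2.77 with siControl and 2.70 to 2.82 with siBach1 at day 0, and 1.85 to 2.42 and 2.08 to 2.65 at day 2. Being log2 of summed signals, it was led by Ptprc, so it says little about the other lineages. At day 0 the means of Ptprc were 2.15 with siControl and 2.37 with siBach1, and those of the next marker, Sp7, -0.33 and -0.39. The part of the marker shifts in the results was not tested. Slide 1 carried replicates 1 and 2 and slide 2 carried replicate 3. On each slide a group always filled the same column, so position and group cannot be told apart.

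Of the 15 member probes, 14 passed the scanner's background limit on all 12 arrays and were tested. The exception was Dnaja3 probe A_55_P2762569, which was well above background on 0 arrays and has only a bound. All 15 accessions matched the same symbol in RefSeq, and the table held 0 probes for copies of Hspe1.

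**Figure D1:**
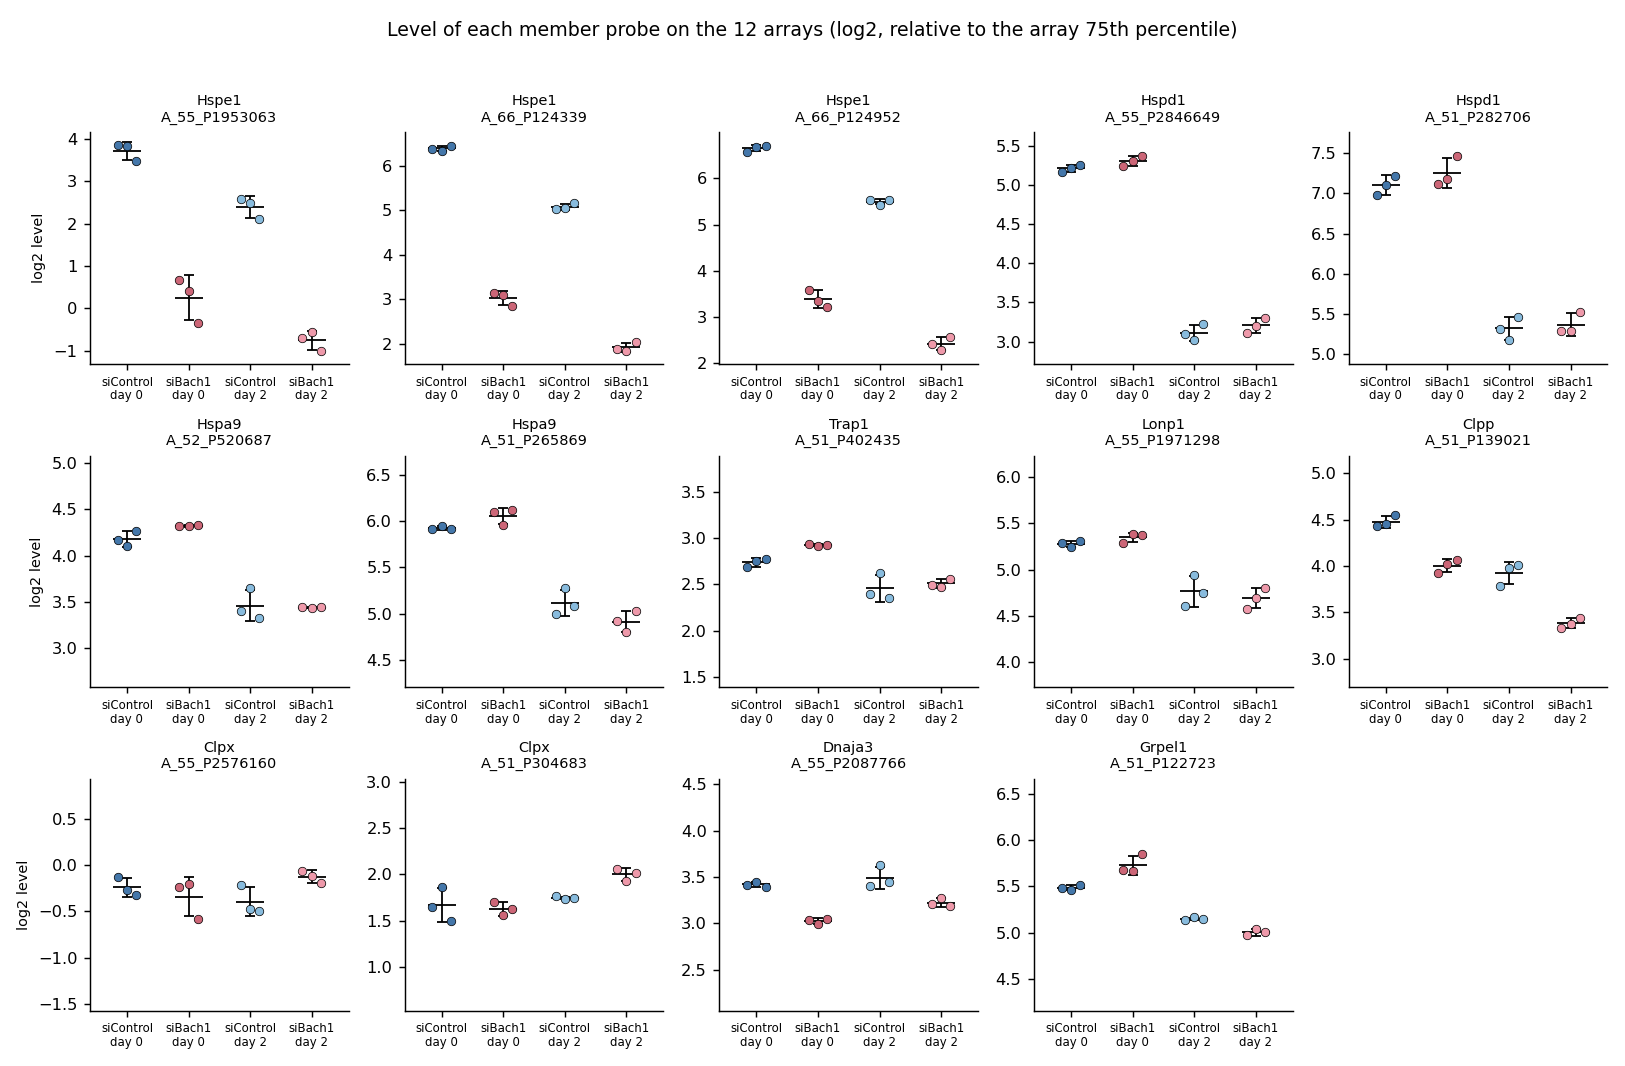
Level of each of the 14 tested member probes on the 12 arrays, as log2 signal minus the array's 75th percentile. Points are arrays in the order of replicates 1 to 3, horizontal marks are means of 3 arrays and bars are ± 1 SD. The 3 Hspe1 probes drop steeply with siBach1 at both days, whereas the Hspd1 probes differ by day and hardly by siRNA.

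Hspe1 and Hspd1 lie head to head, and the short stretch between their starts is shown because it lies in the promoter windows of both. In RefSeq (GRCm38.p6), Hspe1 starts at position 55088148 of chromosome 1 on the plus strand and Hspd1 at 55087932 on the minus strand, 216 bases away. RefSeq also lists another Hspd1 start, at 55088243, inside the Hspe1 gene. The intervening 215 bases, chr1:55087933-55088147 on the plus strand, are printed with the letters of the heat shock motif, TTCNNGAA or GAANNTTC, in capitals.
Hspd1-Hspe1: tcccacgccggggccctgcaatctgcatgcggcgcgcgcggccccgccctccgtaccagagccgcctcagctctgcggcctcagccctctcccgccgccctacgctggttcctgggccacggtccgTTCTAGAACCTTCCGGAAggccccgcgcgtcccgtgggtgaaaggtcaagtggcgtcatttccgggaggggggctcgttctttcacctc

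The capitals form one run of 18 bases that holds TTCNNGAA 2 times and GAANNTTC 1 time, overlapping, from 89 to 72 bases before the Hspe1 start and from 144 to 127 bases before the Hspd1 start. Both motifs read the same on either strand. Of 32851 promoter windows of the same table, each from 250 bases before a start to 50 after it, 8.52% held TTCNNGAA and 7.86% held GAANNTTC. The full pattern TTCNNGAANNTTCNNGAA was in 5 windows, or 0.0152%, of which 2 were those of Hspe1 and of the Hspd1 start at 55087932. These 2 windows overlap by 285 bases and hold the same 18 bases. The pattern was singled out after values were seen, so its share is a description and no test. The window of the other Hspd1 start held neither motif. Among the other members searched, Clpp had TTCNNGAA 1 time, 34 bases past its start. The antioxidant response core TGACNNNGC, searched on both strands and found in 12.4% of windows, occurred in the Lonp1 window 2 times and in no window of Hspe1 or Hspd1. The core shared by AP-1 and Maf sites, TGAGTCA, found in 5.2% of windows, and the C/EBP-ATF core TGATGCAA, found in 0.895%, were in no member's window. Hspa9 was not searched.

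All 3 Hspe1 probes gave the same picture. On the brightest, A_66_P124952, the siControl levels at day 0 were 6.58, 6.67 and 6.70, and the siBach1 levels were 3.60, 3.34 and 3.22. At day 2 they were 5.53, 5.42 and 5.53 with siControl and 2.41, 2.29 and 2.57 with siBach1. Every siBach1 array therefore lay below every siControl array, across days as well as within them. The silencing effect was -3.26 (SE 0.11) at day 0 and -3.07 (SE 0.11) at day 2 on the log2 scale, or 10.4% and 11.9% of siControl.

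Probe A_66_P124339 gave siControl levels of 6.37, 6.34 and 6.45 at day 0 and 5.03, 5.05 and 5.16 at day 2. The siBach1 levels were 3.13, 3.09 and 2.83 at day 0 and 1.87, 1.84 and 2.03 at day 2. Its silencing effects were -3.37 (SE 0.10) and -3.17 (SE 0.10), which left 9.69% and 11.2% of siControl. The dimmer A_55_P1953063 was more scattered, with 3.86, 3.84 and 3.48 in siControl against 0.68, 0.41 and -0.34 in siBach1 at day 0, and 2.58, 2.49 and 2.11 against -0.70, -0.56 and -1.01 at day 2. It gave -3.48 (SE 0.25) and -3.15 (SE 0.25). The mRNA was still measured in silenced cells, since all 3 probes stayed well above background on the 6 siBach1 arrays.

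Among the 29664 probes tested, the 3 Hspe1 probes ranked 3, 7 and 8 from the largest fall at day 0 and 4, 3 and 5 at day 2. At day 0, 8 probes (0.027%) fell by at least 8-fold, and at day 2, 7 probes (0.0236%). These ranks and effects chose the gene, so they carry no test. On slide 1 (replicates 1 and 2) the day 0 effects of the 3 probes were -3.31, -3.24 and -3.15, and on slide 2 (replicate 3) they were -3.83, -3.62 and -3.47, in the order A_55_P1953063, A_66_P124339 and A_66_P124952. Hspe1 mRNA fell to a smaller fraction of control than Bach1 mRNA, which stood at 29.3% of siControl at day 0 and 25.6% at day 2. In RNA from a whole culture, fewer cells with the transcript and less of it per cell cannot be told apart.

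**Figure D2:**
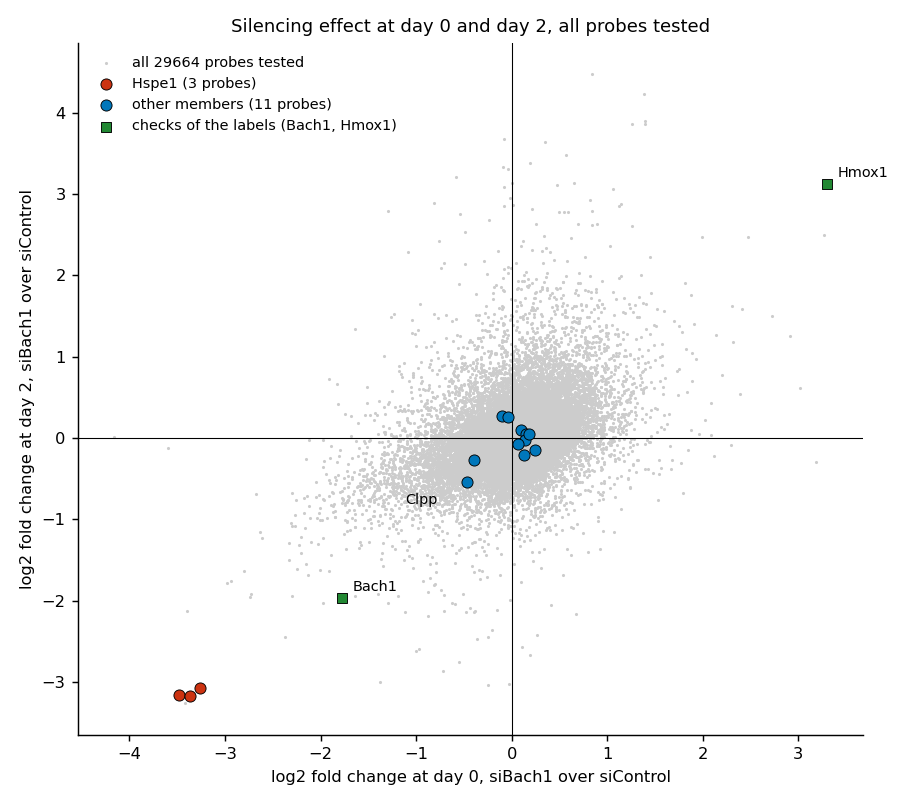
Silencing effect (log2 fold change, siBach1 over siControl) at day 0 on the x axis and at day 2 on the y axis for the 29664 probes tested (grey), the 3 Hspe1 probes (red), the 11 tested probes of other members (blue), and Bach1 and Hmox1 (green squares). Hspe1 stands at the lower left corner, between -3.48 and -3.07 on both axes, while the other members lie between -0.54 and 0.27 on both axes.

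Hspd1, the partner of Hspe1 and its neighbour across the shared stretch, did not fall with it. On A_51_P282706 the day 0 levels were 6.98, 7.11 and 7.22 with siControl and 7.12, 7.18 and 7.46 with siBach1, and at day 2 they were 5.31, 5.18 and 5.47 against 5.28, 5.29 and 5.53. The groups overlapped at both days. The effects were 0.15 (95% confidence interval -0.12 to 0.43) and 0.05 (-0.23 to 0.32), with limma adjusted p of 0.451 and 0.862. Probe A_55_P2846649 gave 0.10 at each day, with intervals of -0.09 to 0.28. The upper bound of 0.43 is a rise of 1.34-fold, so a larger rise of Hspd1 lay outside these intervals.

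The other neighbours of Hspe1 in RefSeq order moved little at day 0. Mob4, the next gene beyond it, changed by 0.20 at day 0 (limma adjusted p = 0.163) and by -0.07 at day 2 (limma adjusted p = 0.707). Coq10b, on the far side of Hspd1, had effects between 0.12 and 0.28 at day 0 on its 4 probes, and Sf3b1 had effects between -0.21 and 0.17 on its 4 probes, and none of the 8 was called. Farther out, 1 of 2 Rftn2 probes fell at day 2 by 0.26 (limma adjusted p = 0.0449) and Mars2 rose by 0.50 (limma adjusted p = 0.039). No probe of these 5 neighbours fell by as much as Hspe1 at either day.

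Members other than Hspe1 had 11 tested probes. By limma at an adjusted p under 0.05, 3 of them were called after silencing at day 0, 1 higher and 2 lower, against 17.1% of all probes called, 8.8% higher and 8.32% lower. Their median effect was 0.10 and that of all probes 0.09. The groups did not overlap for 6 of the 11, where the share over all probes was 37.3%. At day 2, 0 were called higher and 1 lower, against 12% of all probes (5.75% higher and 6.26% lower), with a median of -0.02 beside -0.01 for all probes. The members' median at day 2 turned to 0.08 under quantile normalization and to 0.01 under normexp or without siControl day 2 replicate 2, so it has no direction, and at day 0 quantile normalization took it to 0.01. The groups did not overlap for 5 of the 11 (32.8% of all probes). An unadjusted p under 0.05 was reached by 3 probes at day 0 and 4 at day 2, and by 31.1% and 27.3% of all probes. The highest upper confidence bound of any of the 11 was 0.43 at day 0 and 0.54 at day 2, that is 1.34-fold and 1.45-fold.

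**Figure D3:**
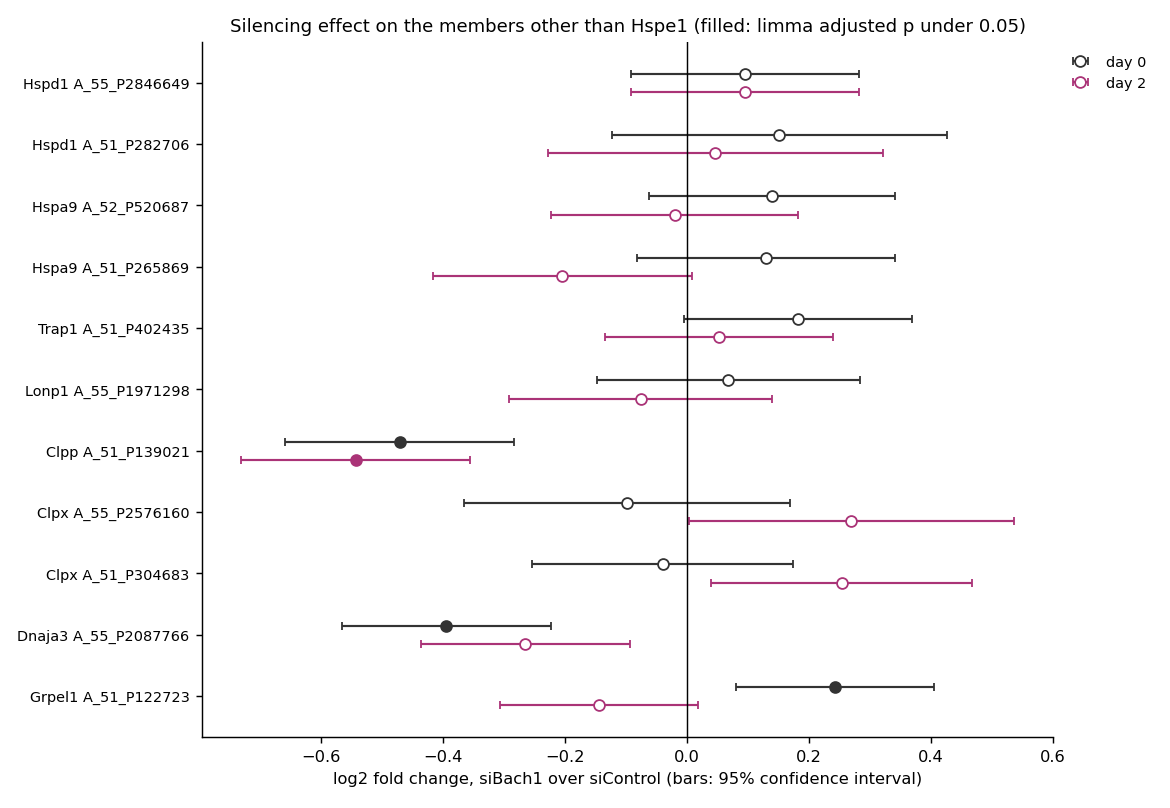
Silencing effect (log2 fold change, siBach1 over siControl) of the 11 tested member probes other than Hspe1 at day 0 (black) and day 2 (purple). Bars are 95% confidence intervals, and filled points passed limma at an adjusted p under 0.05. Clpp lies below 0 at both days at -0.47 and -0.54, and the 2 Clpx probes cross from below 0 at day 0 to above it at day 2.

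Of the import motor, Hspa9 was measured by 2 probes. On A_51_P265869 it stood at 5.91, 5.95 and 5.91 with siControl and 6.09, 5.95 and 6.12 with siBach1 at day 0, and at 5.00, 5.28 and 5.08 against 4.92, 4.80 and 5.03 at day 2. The effects were 0.13 (95% confidence interval -0.08 to 0.34) and -0.20 (-0.42 to 0.01), and neither was called by limma (adjusted p = 0.397 and 0.199). The other probe, A_52_P520687, gave 0.14 and -0.02.

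Dnaja3, which presents substrates to Hspa9, fell with Bach1 silencing at day 0. Its levels were 3.42, 3.45 and 3.40 with siControl and 3.04, 2.99 and 3.05 with siBach1, and the groups did not overlap. The effect was -0.39 (SE 0.08, limma adjusted p = 0.0064), or 76.1% of siControl. This call was lost in 1 of 23 alternatives, with no filter (limma adjusted p = 0.0541). At day 2 the levels of 3.40, 3.62 and 3.45 against 3.21, 3.28 and 3.19 again did not overlap, and the effect was -0.26 (SE 0.08). It missed the threshold with an adjusted p of 0.0513 and passed it with replicate as a block (limma adjusted p = 0.0282).

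Grpel1, which releases the substrate from Hspa9, went the other way at day 0. It rose from 5.49, 5.45 and 5.52 with siControl to 5.68, 5.66 and 5.85 with siBach1, an effect of 0.24 (SE 0.07, limma adjusted p = 0.0456). This call was lost in 17 of 23 alternatives, among them every one that left out an array, where the adjusted p was 0.0537 to 0.138. At day 2 Grpel1 stood at 5.14, 5.16 and 5.14 against 4.97, 5.04 and 5.00, an effect of -0.14 (95% confidence interval -0.31 to 0.02).

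Trap1, a chaperone of the HSP90 family in the matrix, measured 2.69, 2.75 and 2.78 with siControl and 2.93, 2.91 and 2.92 with siBach1 at day 0. The groups did not overlap, yet the effect of 0.18 (95% confidence interval 0.00 to 0.37) was not called (limma adjusted p = 0.17). By the methods' t-test, which takes the spread from the arrays compared, the same difference passed after Benjamini-Hochberg adjustment (adjusted p = 0.0368). At day 2 the effect was 0.05 (-0.13 to 0.24).

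Lonp1, the ATP-dependent protease of the matrix, was called at neither day. The siControl arrays gave 5.29, 5.24 and 5.30 and the siBach1 arrays 5.29, 5.38 and 5.37 at day 0, and 4.61, 4.94 and 4.75 against 4.58, 4.70 and 4.80 at day 2. Effects were 0.07 (95% confidence interval -0.15 to 0.28) and -0.08 (-0.29 to 0.14), with limma adjusted p of 0.688 and 0.684.

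Clpp, the proteolytic subunit of ClpXP, fell at both days. At day 0 its levels were 4.43, 4.45 and 4.55 with siControl and 3.92, 4.03 and 4.07 with siBach1, and at day 2 they were 3.79, 3.98 and 4.01 against 3.33, 3.38 and 3.44. No siBach1 array reached a siControl array of the same day. The effects were -0.47 (SE 0.08, limma adjusted p = 0.0041) and -0.54 (SE 0.08, limma adjusted p = 0.0034), or 72.1% and 68.6% of siControl. The day 0 effect was -0.46 on slide 1 and -0.49 on slide 2, and of 23 alternatives to the adjusted p at each day only the methods' t-test after Benjamini-Hochberg adjustment ended a Clpp call, at day 2 (adjusted p = 0.0517).

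Clpx, the unfoldase that feeds ClpP, was called at neither day. On A_51_P304683 it stood at 1.65, 1.86 and 1.50 with siControl and 1.71, 1.56 and 1.62 with siBach1 at day 0, and at 1.76, 1.74 and 1.74 against 2.06, 1.93 and 2.01 at day 2. The day 2 groups did not overlap, and the effect of 0.25 (95% confidence interval 0.04 to 0.47) was not called (limma adjusted p = 0.119). The dimmer A_55_P2576160 gave 0.27 at day 2 (limma adjusted p = 0.179, and 0.0497 with replicate as a block). At day 0 the 2 probes gave -0.04 and -0.10.

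With replicate as a block, limma called 1 member probe higher (Clpx) and 2 lower (Clpp and Dnaja3) at day 2, in place of 0 and 1. The share of all probes called in that fit was 21.3% (9.78% higher and 11.6% lower), in place of 12%.

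Whether the silencing effect changed between day 0 and day 2 was tested as the difference of the effects. Limma called 0 of the 11 probes, against 4.59% of all probes, and 2 reached an unadjusted p under 0.05, as did 21.8% of all probes. These were Grpel1 with -0.39 (limma adjusted p = 0.0616) and Hspa9 probe A_51_P265869 with -0.33 (limma adjusted p = 0.182). With replicate as a block, limma called 1 of the 11, Grpel1 (adjusted p = 0.0317), where it called 13% of all probes. Under quantile normalization the differences were -0.17 for Grpel1 (limma adjusted p = 0.344) and -0.12 for Hspa9 (adjusted p = 0.718). For Hspe1 the differences were 0.33, 0.20 and 0.19 on the 3 probes, given as a description. They were 0.03, 0.11 and 0.11 without siBach1 day 0 replicate 3 and 0.54, 0.26 and 0.30 without replicate 1 of that group.

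Most members fell during differentiation, while markers of differentiated muscle rose. From day 0 to day 2 in siControl cells, limma called 11 of the 14 tested probes lower and 0 higher, against 53.4% of all probes called in either direction, 28.7% lower and 24.6% higher. The 14 are probes of 9 genes, and Hspe1, Hspd1, Hspa9 and Clpx have more than 1 each, so they do not count separate genes. Every tested probe of the members other than Clpx and Dnaja3 was among the 11. The median over the 14 was -0.64 and that over all probes 0.00. In siBach1 cells 11 were lower and 1 higher, against 56.1% called, 32.3% lower and 23.8% higher. The 2 comparisons share no arrays. Over 6 of 6 markers of differentiated muscle the summed level, taken as log2 of the summed signals, was 5.04 to 5.64 at day 0 and 10.2 to 10.3 at day 2 in siControl cells, and 4.83 to 5.41 and 9.56 to 9.84 in siBach1 cells. The part of the change in cell state in the falls of the members was not tested.

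Of the members, Hspd1 fell most, with log2 changes of -2.10 and -1.79 in siControl cells (limma adjusted p = 4.23e-08 and 1.22e-06 on A_55_P2846649 and A_51_P282706), to 23.3% and 29.0% of day 0. In siBach1 cells its changes were -2.10 and -1.89. Hspe1 fell with changes of -1.33, -1.31 and -1.15 in siControl cells (A_55_P1953063, A_66_P124339 and A_66_P124952), with limma adjusted p of 0.00101, 1.87e-06 and 9.54e-06. In siBach1 cells, from a level already far below control, Hspe1 changed further by -1.01, -1.11 and -0.96. All 3 passed limma, and the first of them (limma adjusted p = 0.0055) missed the threshold by the methods' t-test after adjustment (adjusted p = 0.0748).

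Hspa9 fell with changes of -0.72 and -0.81 in siControl and -0.88 and -1.14 in siBach1 cells. The proteases Clpp and Lonp1 had smaller changes, of -0.55 and -0.62 for Clpp and of -0.51 and -0.66 for Lonp1 in siControl and siBach1 cells, and limma called all 4. Grpel1 fell too, with -0.34 and -0.72. The sizes in siBach1 cells depended on the scaling. Under quantile normalization they were -0.35 for Lonp1, -0.39 for Clpp and -0.40 for Grpel1, all still called by limma, and the median over the 14 probes went from -0.80 to -0.51.

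Trap1 changed by -0.28 (limma adjusted p = 0.016) and -0.41 (limma adjusted p = 0.00173). Its siControl call was lost without siControl day 2 replicate 1 (adjusted p = 0.0573), siControl day 0 replicate 3 (0.0523) or siControl day 2 replicate 3 (0.0599). It was also lost under quantile normalization (-0.17, adjusted p = 0.107), with no filter (0.0813), with only the arrays compared (0.0648) and by the methods' t-test after adjustment (0.0683), which makes 7 of 23 alternatives. Under quantile normalization the siBach1 change was -0.22 (limma adjusted p = 0.0432). No Clpx or Dnaja3 probe was called lower. In siControl cells Clpx changed by -0.15 and 0.08 and Dnaja3 by 0.07, none of them called. In siBach1 cells Clpx probe A_51_P304683 rose by 0.37 (limma adjusted p = 0.0074), while its probe A_55_P2576160 gave 0.22 (adjusted p = 0.155, and 0.0466 with replicate as a block) and Dnaja3 gave 0.20 (limma adjusted p = 0.0507, and 0.0319 with the block). Dnaja3 passed in 8 of 23 alternatives, among them quantile normalization, where its change was 0.41 (limma adjusted p = 0.0014).

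**Figure D4:**
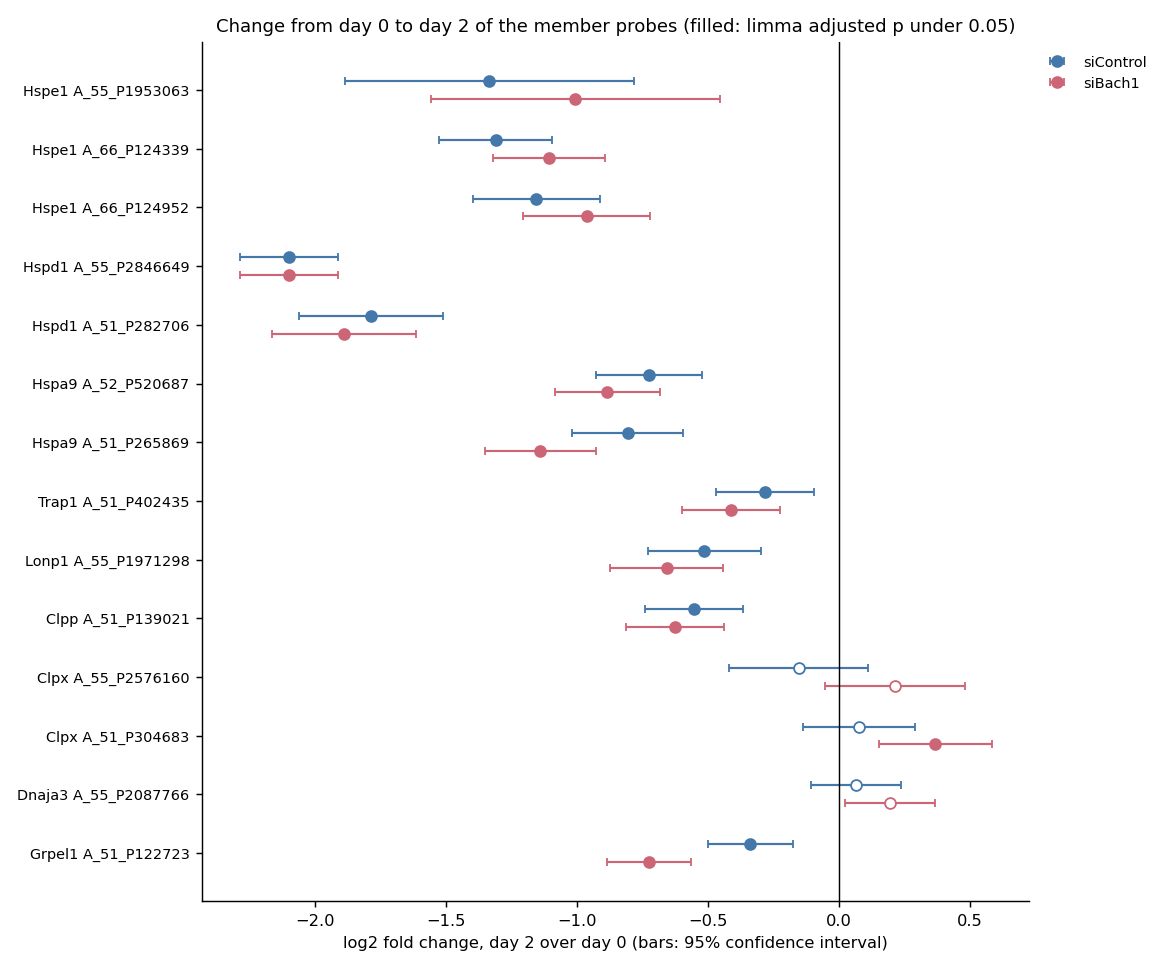
Change from day 0 to day 2 (log2 fold change) of the 14 tested member probes in siControl (blue) and siBach1 (red) cells. Bars are 95% confidence intervals, and filled points passed limma at an adjusted p under 0.05. Hspd1 lies near -2.10 for both siRNAs on its first probe, and Clpx and Dnaja3 sit at or above 0 in siBach1 cells.

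The wider stress response was read from 5 lists of other genes, with 1 probe a gene, as counts and medians. Over all 15642 genes with a tested probe, limma called 19.96% at day 0 with a median effect of 0.08, and 13.78% at day 2 with a median of -0.03. Of 93 list genes, 4 were called at day 0 and 11 at day 2. With replicate as a block, limma called 14 (10 higher and 4 lower) and 24 (3 higher and 21 lower), and its shares over all genes were 30.7% at day 0 (17.5% higher and 13.2% lower) and 23.7% at day 2 (10.4% higher and 13.3% lower). An unadjusted p under 0.05 was reached by 34.4% of all genes at day 0 and 29.6% at day 2.

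The list of the mitochondrial stress and ATF4 response holds 21 genes, with the transcription factors Atf4, Atf5, Ddit3 (CHOP) and Cebpb and targets such as Asns, Psat1, Shmt2 and Fgf21. At day 0 limma called 0 of the 21, and 3 reached an unadjusted p under 0.05. The methods' t-test called 0 after adjustment, and so did limma with replicate as a block. With an array left out limma called 0 to 1 of them. Of the 21 effects 16 were above 0, and the median was 0.10. Under quantile normalization 12 were above 0 with a median of 0.02, and without siBach1 day 0 replicate 3 13 were above 0 with a median of 0.05. The median was also 0.05 without siControl day 0 replicate 1. Atf4 changed by 0.01 (95% confidence interval -0.29 to 0.32), Atf5 by 0.01 (-0.50 to 0.52) and Ddit3 by -0.41 (-1.06 to 0.25). Cebpb had the highest effect of the list, with 3.63, 3.58 and 3.73 in siControl against 4.03, 3.83 and 4.25 in siBach1 cells. The groups did not overlap, and the effect of 0.39 (0.05 to 0.73) was not called (limma adjusted p = 0.112).

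At day 2 an unadjusted p under 0.05 was reached by 15 of the 21, 14 lower and 1 higher, beside 29.6% of all genes. Limma called 6 of the 21 lower and 0 higher, against 7.4% of all genes lower and 6.38% higher. Of the 21 effects 19 were below 0, and the median was -0.54. These values lean on siControl day 2 replicate 2, which stood above the other siControl arrays of that day on 18 of the 21 genes, by a median of 0.73, against 31.6% of all tested probes and a median of 0.00. Trib3, for example, measured 3.22, 5.32 and 2.78, Chac1 4.68, 5.67 and 4.34, and Ddit3 0.60, 1.97 and 0.86 on the 3 siControl arrays. Without that array the median was -0.28 and 17 effects were below 0, with Ddit3, Trib3 and Pycr1 turned above it. Limma then called 3 lower (Atf5, Psat1 and Ddit4) and Cebpb higher, at 0.55 (adjusted p = 0.0214). Fgf21, a secreted hormone of stressed muscle, stood at 4.28, 5.01 and 3.78 with siControl and 3.05, 2.70 and 2.37 with siBach1. It fell by 1.65 (SE 0.44, limma adjusted p = 0.0363), and no siBach1 array reached a siControl array. Without siControl day 2 replicate 2 it gave -1.32 and was not called (limma adjusted p = 0.107). From day 0 to day 2 Fgf21 rose with either siRNA, by 6.21 in siControl and 4.95 in siBach1 cells. Over that time, with all arrays, limma called 4 of the 21 higher and 5 lower in siControl cells, beside 27.7% and 30.1% of all genes. In siBach1 cells it called 2 higher and 9 lower, beside 26.7% and 33.3%. The part of these day changes in the day 2 effects was not tested.

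Atf4 measured 7.85, 8.21 and 7.65 with siControl and 7.45, 7.18 and 7.38 with siBach1 at day 2, an effect of -0.57 (SE 0.14, limma adjusted p = 0.0251) that became -0.41 without that siControl array (adjusted p = 0.0526). Shmt2, which feeds one-carbon metabolism in the mitochondria, fell by 0.77 (limma adjusted p = 0.0384), and Psat1, an enzyme of serine synthesis, by 0.66 (limma adjusted p = 0.0208). The other genes called with all arrays were Ddit4 and Nrf1, at -0.41 and -0.27. Without siControl day 2 replicate 2, Shmt2 gave -0.50 and was not called (limma adjusted p = 0.0568). Psat1 then gave -0.49 (limma adjusted p = 0.0405). Atf5, which is known for driving the mitochondrial unfolded protein response in mammals, had an effect of -0.78 and missed the threshold (limma adjusted p = 0.0531). Without siControl day 2 replicate 2 its effect was smaller, at -0.45, and was called (limma adjusted p = 0.0386). Cebpb was one of the genes above 0, at 0.37 (limma adjusted p = 0.148).

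With any other array left out the median of this list at day 2 lay between -0.65 and -0.46, and under the other scalings between -0.54 and -0.44. The count of calls did not hold. Each of the 6 was lost in 5 to 15 of 23 alternatives, 2 genes were called under quantile normalization, and 8, all lower, with replicate as a block. The count was 2 without siBach1 day 2 replicate 1, 0 without replicate 2 and 2 without replicate 3 of that group, and 3 without replicate 2 of siControl day 0 or of siBach1 day 0. The methods' t-test called 0 after adjustment, and so did limma with no filter. Over 6 of 6 markers of differentiated muscle the summed level was 10.2 to 10.3 in siControl and 9.56 to 9.84 in siBach1 cells at day 2, and its part in the result was not tested.

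**Figure D5:**
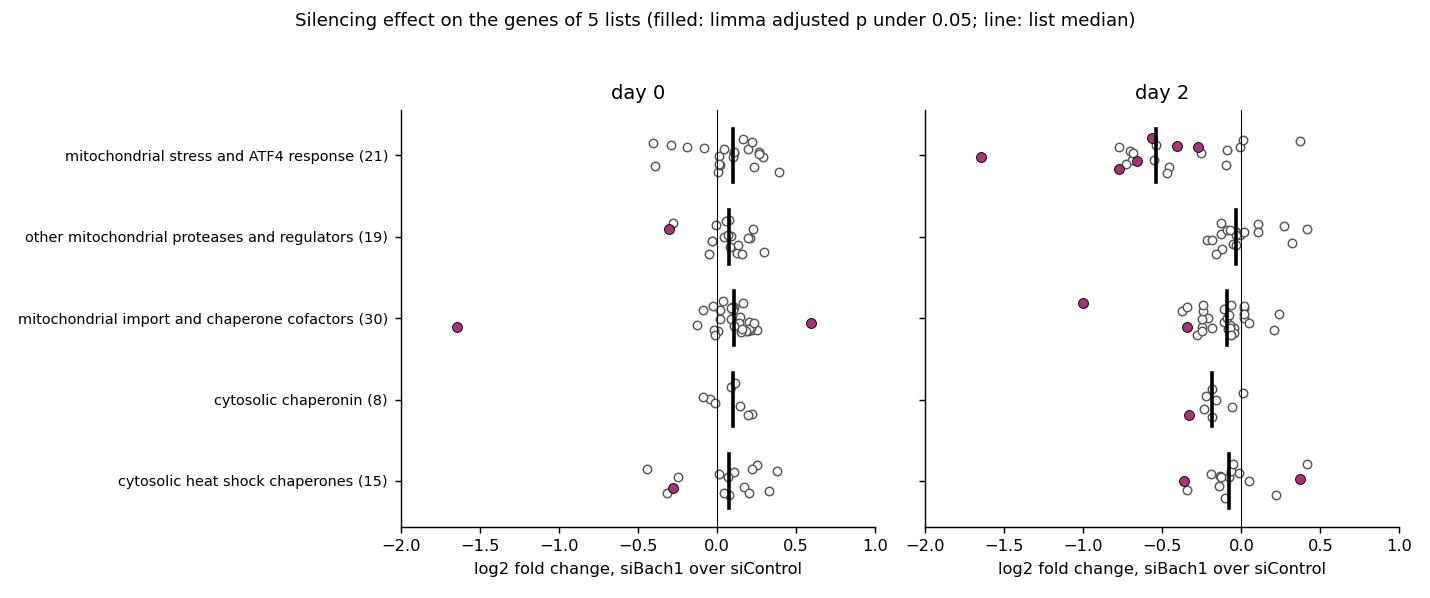
Silencing effect (log2 fold change, siBach1 over siControl) of each gene of the 5 lists at day 0 (left) and day 2 (right). Each point is 1 gene on 1 probe, filled where limma gave an adjusted p under 0.05, and vertical lines are list medians. The median of the mitochondrial stress and ATF4 list is 0.10 at day 0 and -0.54 at day 2, and the far left point of the import list is Tomm70a.

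Other proteases of the mitochondria and their regulators, such as Afg3l2, Yme1l1 and Oma1, were called in 1 of 19 cases at day 0 and 0 of 19 at day 2, where 3 had an unadjusted p under 0.05 and the methods' t-test called 0 after adjustment. The call was Htra2, a protease of the intermembrane space, at -0.30 (limma adjusted p = 0.0335). It was lost in 10 of 23 alternatives, 7 of them with an array left out. With replicate as a block, limma called 2 higher and 1 lower at day 0 and 1 higher at day 2. The list medians were 0.08 and -0.03.

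Among 30 genes of protein import and chaperone cofactors, Tomm70a stood apart. This receptor of the outer membrane takes up precursors handed over by cytosolic chaperones. Its only probe read 2.70, 2.76 and 2.59 with siControl against 1.17, 1.06 and 0.89 with siBach1 at day 0, and 2.09, 2.06 and 2.08 against 1.08, 1.06 and 1.09 at day 2. Tomm70a fell by 1.64 (SE 0.08, limma adjusted p = 3.82e-06) and by 1.00 (SE 0.08, limma adjusted p = 0.000129).

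Tomm5, a small subunit of the outer membrane pore, rose at day 0 by 0.59 (limma adjusted p = 0.0047), and Dnajc19, a cofactor of the import motor, fell at day 2 by 0.34 (limma adjusted p = 0.0268). The Dnajc19 call was lost in 9 of 23 alternatives, and those of Tomm70a and Tomm5 in 0. With Tomm70a this made 2 calls of 30 at each day, and the medians were 0.11 and -0.09. With an array left out there were 2 calls at day 0 and 1 to 4 at day 2. The day 0 median was 0.06 under quantile normalization and 0.05 without siBach1 day 0 replicate 3. With replicate as a block, limma called 5 of the 30 at day 0 (4 higher and 1 lower) and 9 at day 2, all lower, beside its 30.7% and 23.7% of all genes. From day 0 to day 2, 18 of the 30 fell and 1 rose in siControl cells, and 24 fell and 1 rose in siBach1 cells. Over all genes with a tested probe, limma called 57.7% in siControl cells (30.1% lower and 27.7% higher) and 59.9% in siBach1 cells (33.3% lower and 26.7% higher), with medians of 0.01 and -0.06.

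Outside the mitochondria, the 8 subunits of the cytosolic chaperonin gave 0 calls at day 0 by limma, with 1 at an unadjusted p under 0.05 and 0 by the methods' t-test after adjustment. At day 2, Cct5 fell by 0.33 (limma adjusted p = 0.0321), a call lost in 10 of 23 alternatives, while the replicate block gave 2 calls, both lower. Under quantile normalization its effect was -0.17. All 8 fell from day 0 to day 2 with either siRNA, with medians of -0.66 in siControl and -0.86 in siBach1 cells beside the 0.01 and -0.06 of all genes. Under quantile normalization the siBach1 median was -0.50 and the siControl median -0.57. Of 15 cytosolic heat shock chaperones, limma called 1 at day 0, Hspb8, which fell by 0.28 (adjusted p = 0.0396) and was lost in 12 of 23 alternatives. With an array left out the count was 0 to 2, and without siControl day 0 replicate 3 it was 2 higher and 0 lower. An unadjusted p under 0.05 was reached by 9 of the 15, 6 higher and 3 lower, and with replicate as a block limma called 4 higher and 2 lower, where the shares of all genes were 34.4% and 30.7%. At day 2 Dnajb4 rose by 0.37 (limma adjusted p = 0.0268) and Hsp90aa1 fell by 0.36 (limma adjusted p = 0.0428), and these calls were lost in 7 and 14 of 23 alternatives. With replicate as a block, limma called 2 higher and 2 lower at day 2. The medians of these lists at day 2 were -0.19 and -0.08, and quantile normalization turned that of the heat shock list to 0.07. It also turned that of the mitochondrial proteases to 0.05 and that of the import list to 0.00, so no direction is given for these 3 lists at day 2. For the cytosolic chaperonin it took the median from -0.19 to -0.05 at day 2, with 3 of 8 effects above 0, and from 0.10 to -0.02 at day 0.

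The probes of other genes whose levels over the 12 arrays were most like the brightest Hspe1 probe, among 21623 well above background on every array, were those of Tmem11 (r = 0.99), Parvb and C330007P06Rik (r = 0.98 each), and Lpcat1 and Itfg2 (r = 0.98 each). These are Pearson correlations over 12 arrays in 4 groups and describe the arrays. The silencing effects by which Hspe1 was chosen enter each r, so no test is given. An r also leaves out size, since the day 0 effects of these probes ran from -0.64 (Tmem11) to -2.74 (Parvb), beside -3.26 for Hspe1. Other probes of Parvb, C330007P06Rik and Itfg2 went both ways at day 0, from -0.77 to 0.23 for Parvb, and the other Lpcat1 probe gave -0.67. Of the members, Clpp was most like Hspe1 (r = 0.84), then Dnaja3 (r = 0.71), while the 2 Hspd1 probes gave 0.27 and 0.26.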

How the data were processed

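RNA of 12 C2C12 samples was hybridized to 1 Cyanine 3 array each, with 62976 spots. The authors deposited the scanner's processed signal, an intensity after background subtraction, and a table of log2 values that they had normalized to the 75th percentile and the probe median. Recomputing these differed by at most 0.00449. The submitters' processing notes name Feature Extraction 9.1, the file headers 10.7.3.1. No column of per-sample values was left unmapped. No siRNA, probe or protein sequence was used.

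Control spots and 76 to 110 outlier spots per array were removed, log2 values of repeated spots were averaged, and the 75th percentile of the array was taken off. No spot was saturated. Probes that the scanner called well above background in a whole group (3 of 3 arrays) were tested (29664 of 56605) in a single limma 3.58.1 fit (R 4.3.3) of the 4 groups, with Benjamini-Hochberg adjustment over all of them and calls at an adjusted p under 0.05. The number of arrays limits the precision. Residuals correlated above 0.1 for all 18 pairs of same-numbered arrays (0.142 to 0.595). These arrays also share a slide and a row, and replicate was a block in an alternative.

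The members and lists were chosen with earlier results of these data known. Named from each list were up to 4 called genes with the largest effects, and the 5 probes most like Hspe1. Ddit4, Nrf1, Atf5, Ddit3, Cebpb, Trib3, Chac1 and Pycr1, the neighbours of Hspe1, and the motif pattern of 3 heat shock units were singled out after values were seen. Promoter windows came from RefSeq (GRCm38.p6) and the files' build is mm9, so the windows served for sequence only. Of the 9 members, 8 had a window that was searched. The alternatives were quantile normalization, normexp (offset 50, on the median signal), the authors' log2 values, no filter or a filter on all 12 arrays, a replicate or slide block, only the arrays compared, a robust trend, the methods' t-test, a fold change of 2, all probes of a gene, and each array left out.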

Additional observations from a re-analysis of the deposited data

How the results depend on the processing

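The falls of Hspe1 kept their direction in all alternatives run, from -3.70 to -3.18 at day 0 and from -3.30 to -2.83 at day 2 over the 3 probes. Member calls at day 0 were 3 of 11, and 1 with no filter, 5 by the unadjusted t-test and 0 with a fold of at least 2. With an array left out they were 2 in each case. Over all probes, 5079 were called at day 0, 2480 with no filter, 8354 by the unadjusted t-test and 3244 to 5220 with an array left out. At day 2 the single call became 2 under normexp, the authors' values, the filter on all 12 arrays, the slide block and the robust trend, 3 with the replicate block, 5 by the unadjusted t-test, and 0 by the adjusted t-test and with a fold of at least 2. It was 1 with any array left out. Over all probes, 3563 were called at day 2, and 1856 to 3835 with an array left out. Normexp called 3469, the authors' values 3588, the filter on all 12 arrays 3498, the slide block 6457 and the robust trend 4018. The replicate block called 6331, the unadjusted t-test 7192 and the adjusted t-test 1097. The difference between days went from 0 calls to 1 under the filter on all 12 arrays, the replicate block, the slide block and the robust trend, and was 0 with any array left out. Over all probes these alternatives called 1618, 3865, 4060 and 2142 in that order, in place of 1361. A fold of at least 2 left 5 of 11 day calls in siControl and 5 of 12 in siBach1 cells, and leaving out an array gave 10 to 11 and 12 to 13.

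List genes called at day 0 were 4, and 2 with no filter or only the arrays compared, 14 with the replicate block, 16 with the slide block, 9 with the robust trend, 1 with a fold of at least 2, 12 over all probes and 2 to 6 with an array left out. At day 2 they were 11, and 7 under quantile normalization, 1 with no filter, 24 with the replicate block, 26 with the slide block, 2 with only the arrays compared, 20 with the robust trend, 1 by the adjusted t-test, 2 with a fold of at least 2, 17 over all probes and 2 to 14 with an array left out. Apart from the member calls named with it above, the replicate block changed no call of a member. The causes of these changes were not tested. Signal over background limits the second Dnaja3 probe to a bound.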
